A study of Mus musculus with 2 samples.

Results

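Glycosyltransferases of the Golgi apparatus were followed in hearts of C57BL/6 mice with transverse aortic constriction (TAC), an operation that tightens the aortic arch and makes the left ventricle pump against raised pressure. RNA sequencing gave 1 library labelled TAC and 1 library labelled TAC with dioscin, a plant steroidal saponin given for 4 weeks after the surgery (the dioscin library). Both groups carried the constriction. The treatment text of both libraries is worded alike, so the first is taken as untreated from its treatment label, and hearts without the operation were not analysed here. The labels give no genotype beyond the strain and no age, and leave unsaid how many hearts were used per library. The members were protein-coding genes chosen by symbol alone, from the families B3galt, B4galt, B3galnt, B4galnt, B3gnt, Mgat, Galnt, Fut, St3gal, St6gal, St6galnac and St8sia, which gave 82 gene identifiers of 55401 in the files. They carry 81 symbols, since St6galnac2 stands for 2 identifiers.

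Glycosyltransferases build the sugar chains of proteins and lipids in a fixed order as their substrates pass through the secretory pathway. Most enzymes of the Mgat family set the number of branches of N-glycans, and those of the Galnt family attach the first sugar of mucin-type O-glycans. Galactosyl- and N-acetylglucosaminyltransferases lengthen the chains, and fucosyl- and sialyltransferases cap them. In heart muscle, sialic acids on ion channels are known to affect channel gating, and O-mannosyl glycans on dystroglycan bind the surrounding matrix. Membership by symbol does not fix the compartment, since B3galnt2, for example, is known to act in the endoplasmic reticulum.

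Gene counts came to 16782741 for the TAC library and 17612259 for the dioscin library. Mitochondrially encoded genes took 31.6% and 25.5% of them. Counts are given as CPM, the count relative to the library size after TMM scaling, and levels of different genes are compared as RPKM, which also divides by the kilobases of annotated exon. Ratios divide the dioscin library by the TAC library, with 0.5 added to both counts, each with an exact 95% Clopper-Pearson interval that covers counting error only. By the size rule, a gene is called higher or lower if either library had 1 CPM or more, the levels differed by 2-fold or more and the interval left out 1. With 1 library per group there is no test of the treatment, and all statements compare these 2 libraries. In such bulk RNA of hearts, fewer cells of a type and less RNA per cell cannot be told apart. The ventricular muscle markers summed to 48732 CPM with TAC against 52514 CPM with dioscin, with all 8 of 8 markers inside a 2-fold difference.

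Markers of other cell types differed between the same libraries. Atrial muscle markers were higher in 7 of 7 cases and summed to 600 CPM with TAC against 17609 CPM with dioscin, with Mybphl at 0 counts with TAC. Mesothelial markers were higher in 7 of 8 cases (18.8 and 155 CPM, Krt8 and Krt18 at 0 in the TAC library), and fat cell markers in 5 of 6 (1345 and 2606 CPM, Cidec and Plin1 at 0 in the TAC library). The sum of the fat cell markers does not describe the typical marker. Their median level was 0.144 RPKM with TAC and 2.36 RPKM with dioscin, and their median log2 ratio was 4.68. Of the fibroblast markers 4 of 7 were higher (1068 and 3286 CPM), of the macrophage markers 2 of 6 (123 and 251 CPM), and of the endothelial markers 2 of 6 were higher and 1 lower (1386 and 1441 CPM). B cell markers were lower in 6 of 6 measured cases, with 33.1 and 8.35 CPM. The part of these cells in the differences of the glycosyltransferase genes was not tested.

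Of the 82 genes, 55 reached 1 CPM, 27 did not and 10 of these had no count in either library. By the size rule 3 of the 55 were higher in the dioscin library (St6gal1, Galnt16 and Fut10), 5 were lower (Mgat5b, B3galt2, B4galnt2, B3gnt5 and B4galnt1) and 47 did not pass. That is 14.5% called, beside 19.3% of the 15697 genes and 17.1% of the 13219 protein-coding genes at or above 1 CPM. The share called higher was 5.45%, against 10.5% of all genes and 9.8% of protein-coding genes. The share called lower was 9.09%, against 8.77% and 7.27%. With libraries scaled by counts outside the mitochondrial genome, which moved the median log2 ratio of all genes from 0.01 to -0.21, 59 genes reached 1 CPM and the split was 3 higher (B3gnt7 in place of Fut10) and 9 lower. That is 5.08% higher and 15.3% lower, beside 7.71% and 13.8% of the 16540 genes at or above 1 CPM under that scaling. The share of the set that differed was thus near the background, and its median log2 ratio of 0.10 lay close to the 0.02 of protein-coding genes. Of the 55 ratios, 30 were above 1 and 25 below, and 16 had an interval wholly above 1 and 16 wholly below. Of the 15697 genes, 5503 had an interval wholly above 1 and 5031 wholly below. For the 55 genes the split of intervals was 14 above and 20 below with total counts. It was 10 and 22 without mitochondrial counts. Summed over all 82 genes, the level was 1136 CPM with TAC against 1229 CPM with dioscin. The ratio of 1.08 (1.06 to 1.10) became 0.94 when mitochondrial counts were left out of the library size.

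**Figure D1:**
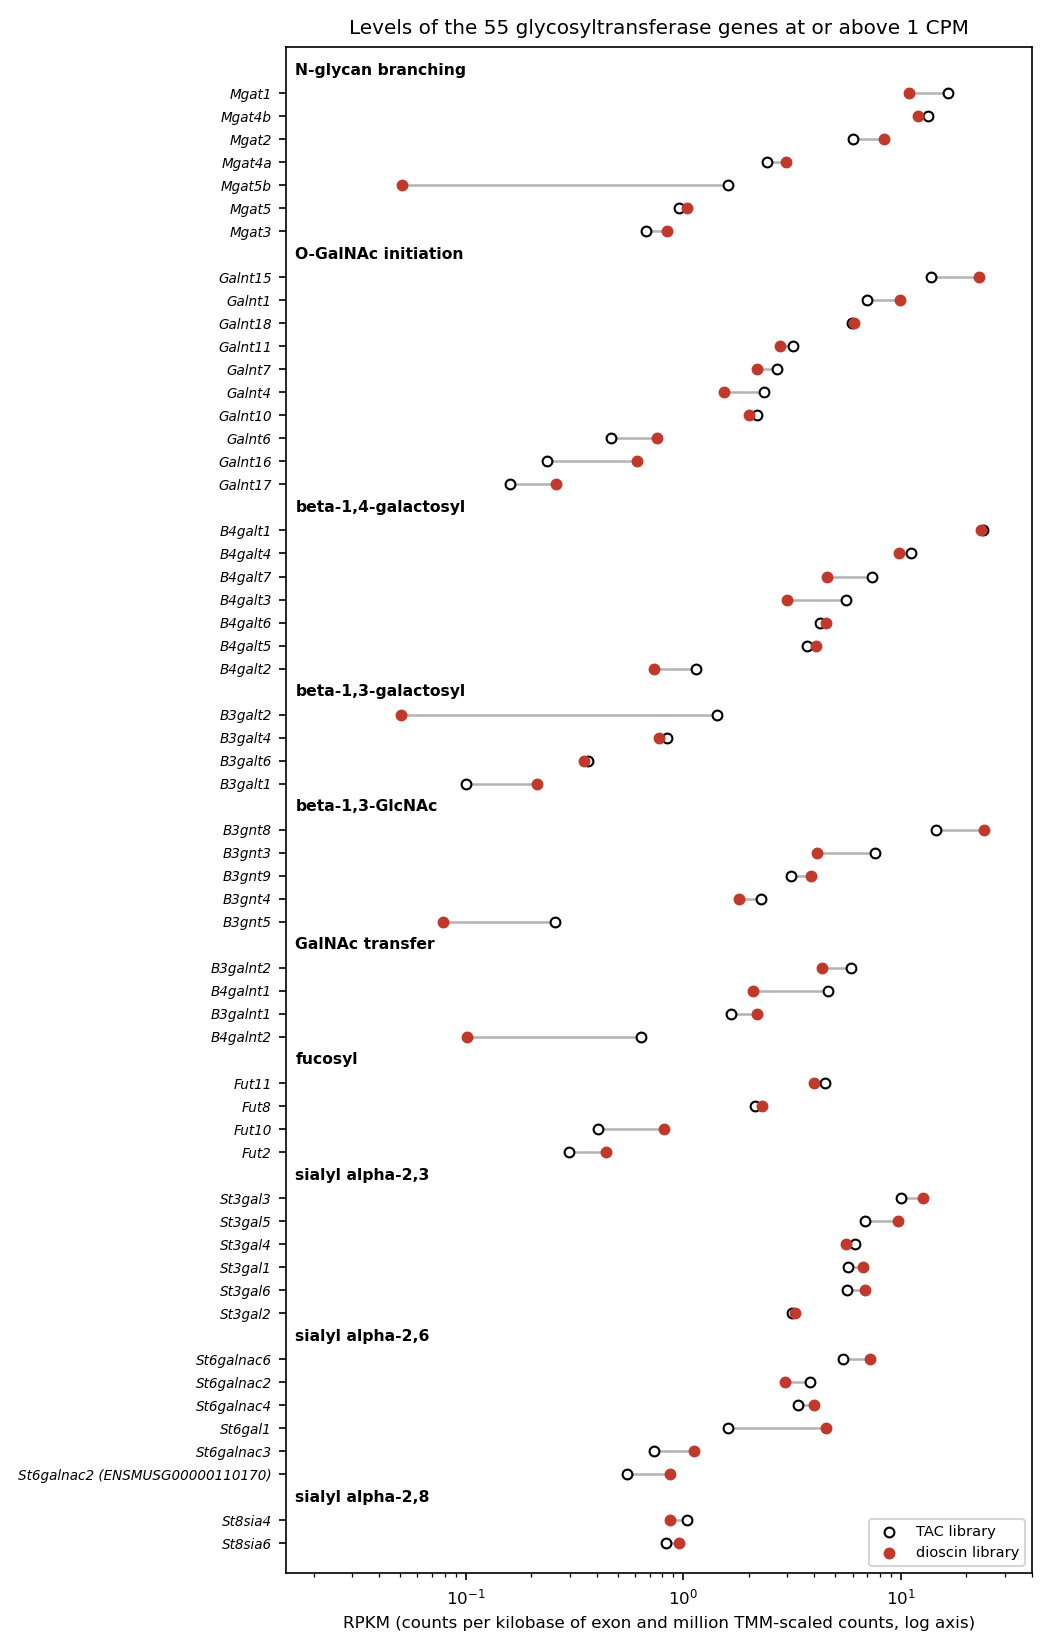
RPKM (log axis) of each of the 55 genes at or above 1 CPM, grouped by enzyme role, with an open circle for the TAC library and a filled circle for the dioscin library. Most pairs lie close together, whereas Mgat5b lies at 1.60 and 0.0508 RPKM.

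The 2 genes with the largest difference had nearly the same ratio. Mgat5b encodes a branching enzyme known from the brain, which acts on O-mannosyl glycans. It had 127 counts (7.35 CPM) with TAC and 4 counts (0.234 CPM) with dioscin and was 28.1-fold lower (11.99 to 117). B3galt2 encodes a galactosyltransferase of type 1 chains. It had 228 counts (13.2 CPM) and 8 counts (0.467 CPM), 26.6-fold lower (14.1 to 66.2). By log2 ratio these genes stood at places 15 and 17 from the lowest among the 15697 genes at or above 1 CPM. Mgat5b (ENSMUSG00000043857.16) lies on chromosome 11, 116918863 to 116986948, and B3galt2 (ENSMUSG00000033849.3) on chromosome 1, 143640664 to 143654614, on GRCm38.

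Of the 3 protein-coding genes on either side, those around Mgat5b did not pass the size rule. The nearest protein-coding genes around Mgat5b were Mfsd11, 43.2 kb before it, with a ratio of 0.931 (0.827 to 1.05), and Sec14l1, 128 kb after it, with a ratio of 0.879 (0.822 to 0.940). B3galt2 lies opposite to Cdc73, which covers 7.31% of its exonic length and had a ratio of 1.21. Beyond that, the nearest gene after it, Glrx2, had a ratio of 0.989 (0.861 to 1.14), and the nearest before it, Kcnt2, lies 3029 kb away and was higher, with a ratio of 2.15 (1.79 to 2.60). No annotated exon of another gene overlaps those of Mgat5b. In base composition the pair stood at opposite ends of the 55 genes, with the highest GC content in the transcripts of Mgat5b (59.9%) and the lowest in those of B3galt2 (35.5%). After correction for GC content and exonic length the log2 ratios were -4.60 for Mgat5b and -4.27 for B3galt2, against -4.81 and -4.74 without it.

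The sequences before the annotated starts of the pair are shown because both genes were lower to a like extent, together with the most upstream of the 3 starts listed for St6gal1, the member with the highest ratio. Each is the 250 bases that end just before the RefSeq start, 5′ to 3′ on the strand of the gene, from RefSeq on GRCm38.p6, at chr11:116918613-116918862 for Mgat5b, chr1:143640447-143640696 for B3galt2 and chr16:23224490-23224739 for St6gal1, all on the plus strand. Capitals mark any match, on either strand, to the GC box GGGCGG, the TATA box TATAAA, the CCAAT box CCAAT, the E-box CACGTG, the cyclic AMP element TGACGTCA, the MEF2 core CTAAAAATA or the glucocorticoid hexamer AGAACA. None of these motifs contains another.
Mgat5b: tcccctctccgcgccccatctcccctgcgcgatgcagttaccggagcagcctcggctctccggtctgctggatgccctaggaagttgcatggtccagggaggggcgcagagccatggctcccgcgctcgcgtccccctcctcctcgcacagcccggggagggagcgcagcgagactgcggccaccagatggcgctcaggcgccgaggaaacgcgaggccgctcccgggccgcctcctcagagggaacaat
B3galt2: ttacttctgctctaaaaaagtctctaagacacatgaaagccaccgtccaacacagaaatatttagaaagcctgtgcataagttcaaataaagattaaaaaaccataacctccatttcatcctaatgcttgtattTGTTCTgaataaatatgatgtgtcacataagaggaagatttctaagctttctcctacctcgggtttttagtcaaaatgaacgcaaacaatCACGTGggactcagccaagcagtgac
St6gal1: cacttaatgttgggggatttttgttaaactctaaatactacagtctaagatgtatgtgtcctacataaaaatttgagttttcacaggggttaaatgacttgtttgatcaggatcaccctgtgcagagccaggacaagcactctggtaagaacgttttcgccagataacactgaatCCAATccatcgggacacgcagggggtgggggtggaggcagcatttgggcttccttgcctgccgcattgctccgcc

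The window of Mgat5b holds 25 CpG dinucleotides, 0.80 of the number its base composition would give, and has no match to these motifs. That of B3galt2 holds 4 CpG, a ratio of 0.48, with 1 E-box and 1 glucocorticoid hexamer. St6gal1 has a CpG ratio of 0.43 and 1 CCAAT box. Windows were found for 59 of the 81 symbols, 80 windows in all, with none for B4galnt1 and Fut10. Their median CpG ratio was 0.62, against 0.53 for the 21263 windows of protein-coding genes, and their median GC content was 60.2% against 55.6%. A GC box was present in 52.5% of them against 42.6%, a TATA box in 1.25% against 11.6%, a CCAAT box in 31.2% against 35.4%, an E-box in 6.25% against 6.63%, the cyclic AMP element in 2.50% against 1.92% and the hexamer in 8 of 80 against 13.7%. The MEF2 core was found in none of the 80 and in 0.381% of protein-coding windows. These are matches of letters, and nothing on binding follows from them.

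**Figure D2:**
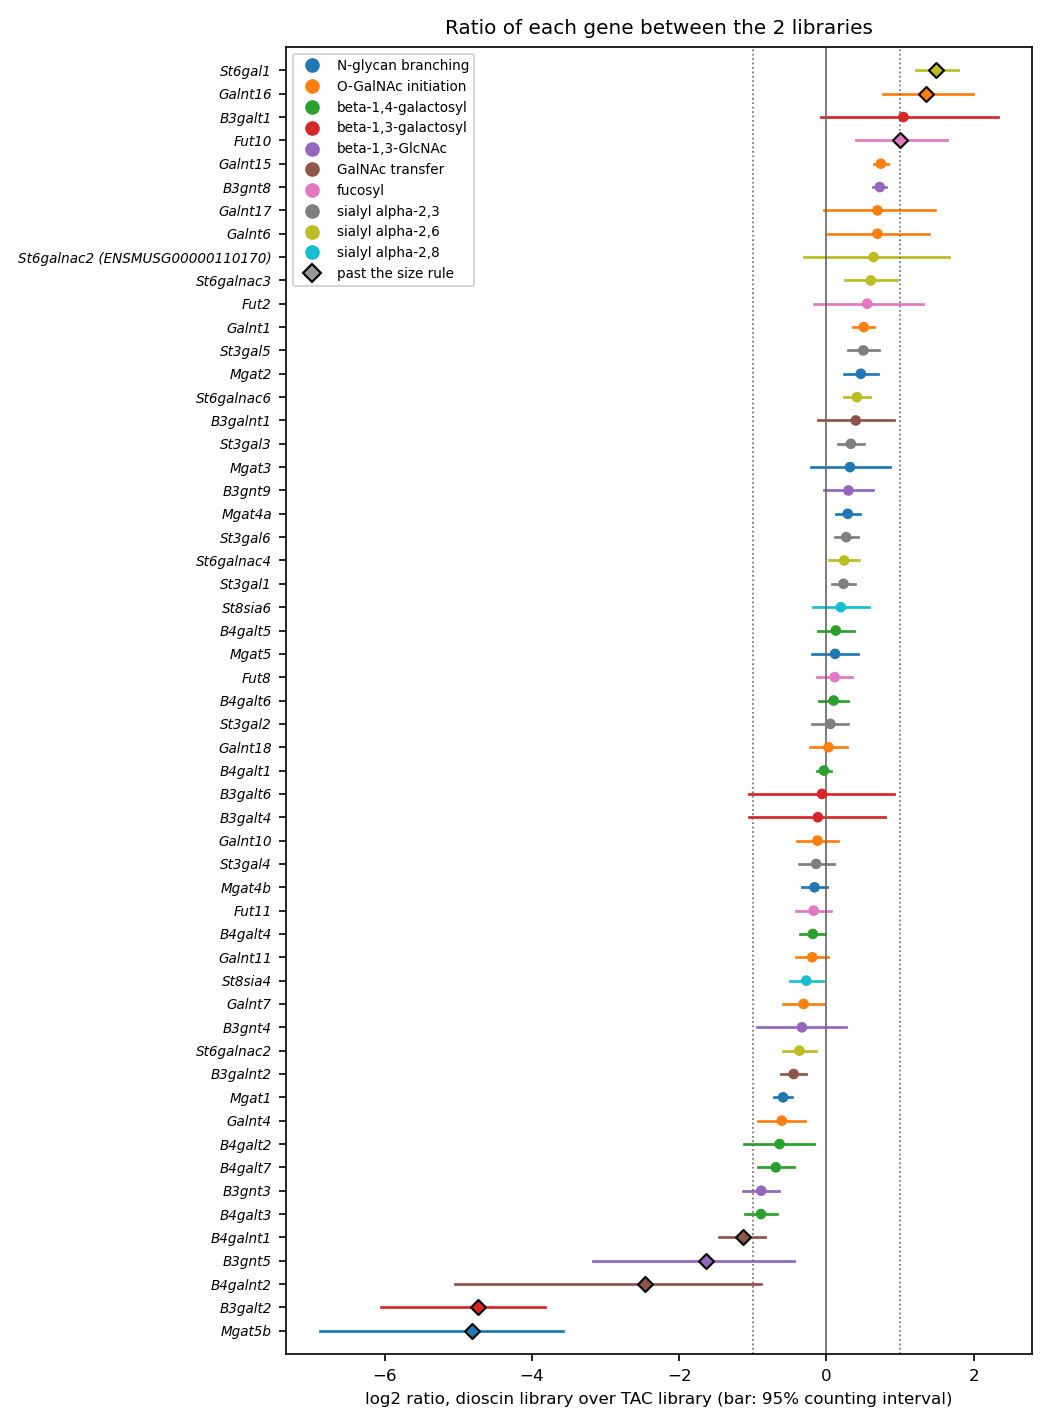
Log2 ratio (dioscin over TAC) for the 55 genes at or above 1 CPM, coloured by enzyme role, with bars for the 95% counting interval, a solid line at equal levels and dotted lines at a 2-fold difference. Diamonds mark the 8 genes past the size rule, with Mgat5b and B3galt2 at -4.81 and -4.74 and St6gal1 at 1.496.

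Of the Mgat family, grouped here as N-glycan branching enzymes, 1 of the 7 genes at or above 1 CPM was lower. That is 14.3%, beside 8.77% of all genes, and such shares in small families rest on few genes. The gene was Mgat5b, which acts on O-mannosyl glycans. The other 6 did not pass the size rule. Mgat1, which opens the way to hybrid and complex N-glycans, went from 77.7 to 51.6 CPM, a ratio of 0.665 (0.610 to 0.725). Mgat2, which starts the other main antenna, went the other way, from 15.8 to 21.8 CPM with a ratio of 1.38 (1.18 to 1.62). Both intervals exclude 1, and both differences stay inside 2-fold. Mgat4a and Mgat4b add the beta-1,4 branch and did not pass the size rule, with 31.3 and 38.3 CPM for Mgat4a (ratio 1.22, 1.09 to 1.37) and 36.3 and 32.5 CPM for Mgat4b (0.895, 0.797 to 1.00). Mgat5, which adds the beta-1,6 branch to N-glycans, had 9.84 and 10.7 CPM, with an opposite-strand gene over 1.48% of its length, Tmem163, at 9 and 491 counts. Mgat3, which adds the bisecting sugar, had 3.13 and 3.91 CPM. The intervals of Mgat3 and Mgat5 included 1, so no difference was detectable at this depth. That of Mgat4b included 1 narrowly, with an upper bound of 1.004 under TMM scaling. In the family 2 intervals lay wholly below 1 with TMM, and 3 did under each of the 3 other scalings. Per length, Mgat1 was the most abundant in the TAC library at 16.4 RPKM, ahead of Mgat4b at 13.4 RPKM, and in the dioscin library Mgat4b at 11.9 RPKM stood ahead of Mgat1 at 10.9 RPKM. The summed level of the family had a ratio of 0.877 (0.833 to 0.924), below 1 under each of the 4 scalings. Mgat1 weighed heavily in this sum, with 1341 of 3132 counts with TAC and 884 of 2723 with dioscin. The sum also includes Mgat5b, with 127 counts with TAC and 4 with dioscin. With TMM scaling 4 of the 7 ratios were above 1, and the median log2 ratio was 0.12, or -0.09 without mitochondrial counts. Mgat4c, Mgat4d and Mgat4e had no counts.

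The polypeptide N-acetylgalactosaminyltransferases of the Galnt family, which start mucin-type O-glycans, had 1 of 10 genes higher and none lower. The 10.0% called higher stood beside 10.5% of all genes. Galnt16 (ENSMUSG00000021130.8; chromosome 12, 80518277 to 80630972) had 33 counts (1.91 CPM) and 84 counts (4.91 CPM), 2.54-fold higher (1.70 to 3.97). Its level stayed low, at 0.610 RPKM in the dioscin library, and the opposite-strand genes over 7.85% of its exonic length had at most 7 counts. Galnt15 was the most abundant of the family in both libraries, with 86.9 and 145 CPM (13.7 and 22.9 RPKM) and a ratio of 1.67 (1.57 to 1.78). Galnt1 followed with 38.5 and 54.7 CPM and a ratio of 1.42 (1.29 to 1.57). In the summed RPKM of the family, Galnt15 made up 35.8% with TAC and 46.7% with dioscin. Galnt18 was level at 15.3 and 15.6 CPM. Lower ratios were found for Galnt4, from 11.9 to 7.83 CPM (0.657, 0.524 to 0.820), and for Galnt7, from 14.1 to 11.4 CPM (0.807, 0.664 to 0.977). Neither passed the size rule, and Galnt4 shares 8.25% of its exonic length with Poc1b on the same strand, where reads fit both genes. Galnt11 had 21.8 and 19.1 CPM and Galnt10 13.03 and 11.98 CPM, with intervals that included 1. Galnt6 (1.80 and 2.92 CPM, ratio 1.62, 1.02 to 2.64) and Galnt17 (1.51 and 2.45 CPM, 1.62, 0.976 to 2.77) were low in both libraries. The summed level of the family went from 208 to 276 CPM, a ratio of 1.33 (1.27 to 1.39) that lay above 1 under each of the 4 scalings. Galnt15 weighed heavily in this sum, with 1501 of 3593 counts with TAC and 2484 of 4732 with dioscin. With TMM scaling 6 ratios were above 1 and 4 below (median log2 ratio 0.27). Without mitochondrial counts 5 were above and 5 below (median 0.06). The 7 genes under 1 CPM were Galnt2, Galnt3, Galnt5, Galnt9, Galnt12, Galnt13 and Galnt14, with at most 14 counts. For Galnt2, 90.0% of the exonic length is shared on the same strand with a predicted gene, so its 2 counts in each library do not measure its level.

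None of the 7 beta-1,4-galactosyltransferases passed the size rule, and all were at or above 1 CPM. B4galt1, the main enzyme that adds galactose to N-glycan antennae, was the most abundant at 100.5 and 98.3 CPM (23.7 and 23.2 RPKM), a ratio of 0.978 (0.914 to 1.05). B4galt3, from 30.4 to 16.4 CPM, had the lowest ratio at 0.540 (0.465 to 0.625). An opposite-strand gene, Ppox, covers 14.5% of its exonic length and had a ratio of 0.684. B4galt7, which adds the first galactose of the glycosaminoglycan linker, went from 21.4 to 13.3 CPM (0.621, 0.524 to 0.734). B4galt2, from 5.73 to 3.68 CPM (0.644, 0.461 to 0.889), shares 28.2% of its exonic length with Ccdc24 on the same strand, which had 27 and 58 counts. Both were lower by less than 2-fold, as was B4galt4, from 35.8 to 31.5 CPM (0.880, 0.782 to 0.989). The lactosylceramide synthases B4galt5 (15.98 and 17.5 CPM) and B4galt6 (24.7 and 26.4 CPM) had ratios of 1.09 and 1.07, with intervals that included 1, and both ratios fell below 1 when mitochondrial counts were left out of the library size. The family summed to 234 CPM with TAC against 207 CPM with dioscin, a ratio of 0.883 (0.844 to 0.924), below 1 under each of the 4 scalings.

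Apart from B3galt2, the beta-1,3-galactosyltransferases were near the limit of detection. B3galt4, the ganglioside GM1 synthase, had 23 and 21 counts, and B3galt6, which adds the next galactose of the glycosaminoglycan linker, had 20 and 19 counts. B3galt1, another enzyme of type 1 chains, had 10 and 21 counts, and its ratio of 2.07 had an interval of 0.955 to 5.04 that included 1. No difference of these genes was detectable at such counts. B3galt2 made up 52.1% of the summed RPKM of the family with TAC and 3.62% with dioscin. B3galt5 had no counts.

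The beta-1,3-N-acetylglucosaminyltransferases of the B3gnt family extend chains with N-acetylglucosamine, and 1 of 5 genes was lower. This 20.0% stood beside 8.77% of all genes and rests on 1 gene. B3gnt5 (ENSMUSG00000022686.14; chromosome 16, 19760208 to 19772753), which starts lacto-series glycolipids, had 23 counts (1.33 CPM) and 7 counts (0.409 CPM), 3.11-fold lower (1.35 to 8.99). B3gnt3, which extends core 1 O-glycans, went from 23.2 to 12.6 CPM, with a ratio of 0.541 (0.456 to 0.640) just short of the size rule. B3gnt8, which acts on branched N-glycans, was the most abundant of the family, with 93.9 and 155 CPM (14.5 and 24.0 RPKM) and a ratio of 1.65 (1.55 to 1.76). The opposite-strand gene Bckdha, a subunit of the branched-chain ketoacid dehydrogenase, covers 18.1% of the exonic length of B3gnt8. Bckdha had 99.5 and 171 CPM, a ratio of 1.71 and thus close to that of B3gnt8. The kit is taken as one that does not mark strand, so reads within the overlap of such a pair may come from either gene. The same holds for B3gnt4, which had 3.24 and 2.57 CPM and lies over 93.2% of its exonic length opposite to Diablo (6.20 and 5.84 CPM). B3gnt9 had 7.88 and 9.70 CPM, a ratio of 1.23 (0.976 to 1.56), with 16.5% of its length opposite to D230025D16Rik, whose ratio was 1.21. B3gnt2, B3gnt6 and B3gnt7 were under 1 CPM with at most 15 counts. B3gnt2, the enzyme of long lactosamine chains, shares 65.5% of its exonic length with other annotated genes on its strand, so its 15 and 14 counts do not measure its level.

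Genes that transfer N-acetylgalactosamine to chains had 2 of 4 members lower and none higher. This 50.0%, beside 8.77% of all genes, rests on B4galnt1, whose exons overlap another gene, and B4galnt2, which had few counts. B4galnt1 (ENSMUSG00000006731.10; chromosome 10, 127165225 to 127172330), the synthase of the gangliosides GM2 and GD2, went from 276 counts (15.98 CPM) to 124 counts (7.24 CPM), 2.20-fold lower (1.78 to 2.75). Its opposite-strand neighbour Slc26a10 covers 20.7% of its exonic length and went from 138 to 60.6 CPM, a ratio of 0.439 beside the 0.454 of B4galnt1. Here too, reads within the overlap may come from either gene. B4galnt2 (ENSMUSG00000013418.8; chromosome 11, 95865943 to 95914891), which makes the Sd(a) determinant, had 19 counts (1.10 CPM) and 3 counts (0.175 CPM), 5.52-fold lower (1.85 to 33.1). Its opposite-strand gene covers 15.3% of its exonic length and had 2 and 3 counts. B3galnt2, an enzyme of dystroglycan O-mannosyl glycans, went from 37.2 to 27.3 CPM (ratio 0.735, 0.650 to 0.828), and B3galnt1, the globoside synthase, had 3.36 and 4.44 CPM (1.32, 0.927 to 1.89). B4galnt3 and B4galnt4 were under 1 CPM with at most 4 counts.

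Of the fucosyltransferases, 1 of 4 genes was higher and none lower. This 25.0% stood beside 10.5% of all genes and rests on 1 gene. Fut10 (ENSMUSG00000046152.16; chromosome 8, 31187331 to 31261738) had 35 counts (2.03 CPM) and 70 counts (4.09 CPM), and its ratio of 2.004 (1.33 to 3.12) lay at the edge of the size rule. Scaling by total counts, with or without mitochondrial genes, or by DESeq2 size factors, a pseudocount of 1, and the correction for GC content and length each ended the call. Fut11 was the most abundant of the family at 19.1 and 16.9 CPM (4.49 and 3.98 RPKM), followed by Fut8, which attaches the core fucose of N-glycans, at 16.8 and 18.2 CPM. Fut2, which makes the H determinant of secretions, had 1.62 and 2.40 CPM. The intervals of these 3 genes included 1. Fut1, Fut4, Fut7 and Fut9, of which the last 3 make Lewis-type structures, were under 1 CPM with at most 14 counts.

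Sialyltransferases cap the chains. St6gal1 (ENSMUSG00000022885.16; chromosome 16, 23224740 to 23360350), which adds alpha-2,6 sialic acid to N-glycans, had 136 counts (7.88 CPM) with TAC and 381 counts (22.3 CPM) with dioscin, 2.82-fold higher (2.32 to 3.46). Of the 14 sialyltransferase genes at or above 1 CPM it alone passed the size rule, 7.14% higher beside 10.5% of all genes. Unlike Mgat5b, it had genes that were also higher among the 3 on either side. Adipoq, 66.7 kb before it, had 4 and 40 counts (a ratio of 9.08, 3.65 to 38.8). Masp1, 89.1 kb after it, had 124 and 373 counts (3.03, 2.47 to 3.75). The others did not pass the size rule. Before it, Rfc4 had a ratio of 1.15 (0.810 to 1.65) and Eif4a2, 111 kb away, of 1.01. After it, Rtp4 went the other way (0.563, 0.488 to 0.649) and Rtp1 had no counts. Adipoq is among the fat cell markers that were higher in the dioscin library, and a link of these neighbours to St6gal1 was not tested. Within the alpha-2,6 family, St6gal1 made up 10.3% of the summed RPKM with TAC and 21.8% with dioscin, behind St6galnac6 in the latter.

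The St6galnac genes add alpha-2,6 sialic acid to N-acetylgalactosamine, and none of those at or above 1 CPM passed the size rule. St6galnac6 was the most abundant, with 26.1 and 34.8 CPM and a ratio of 1.33 (1.18 to 1.51). Its neighbour St6galnac4, which lies 11 bases away on chromosome 2, had 21.8 and 25.8 CPM (1.18, 1.03 to 1.36), and St6galnac3 had 6.60 and 10.0 CPM (1.52, 1.19 to 1.95). These ratios were above 1, whereas St6galnac2 (ENSMUSG00000057286.6) went from 22.01 to 17.1 CPM with a ratio of 0.776 (0.663 to 0.905). The other gene of that symbol (ENSMUSG00000110170.1) shares 22.8% of its exonic length with the first and had 16 and 25 counts. Ambiguous reads were kept apart (1.49% of everything counted with TAC and 1.39% with dioscin). Reads that fit both genes may thus be missing from both counts. St6gal2, St6galnac1 and St6galnac5 were under 1 CPM with at most 10 counts. The summed alpha-2,6 level went from 85.4 to 112 CPM, a ratio of 1.31 (1.22 to 1.40), above 1 under each of the 4 scalings. This sum includes St6gal1, which had 136 of the 1475 counts with TAC and 381 of the 1917 with dioscin.

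All 6 alpha-2,3-sialyltransferases were at or above 1 CPM and none passed the size rule. St3gal5, which makes the ganglioside GM3, had the highest ratio, from 17.9 to 25.4 CPM (1.42, 1.22 to 1.64). St3gal3 (27.7 and 34.9 CPM, ratio 1.26, 1.12 to 1.42) was the most abundant per length at 10.0 and 12.6 RPKM. St3gal1, which caps core 1 O-glycans, had 39.0 and 45.9 CPM (1.17, 1.06 to 1.304), and St3gal6 had 35.0 and 42.2 CPM (1.21, 1.08 to 1.35). St3gal2 was level at 15.9 and 16.5 CPM, and St3gal4 had 17.95 and 16.3 CPM (0.908, 0.770 to 1.07), with an opposite-strand gene, 4930581F22Rik, over 14.1% of its exonic length at a ratio of 0.516. With TMM scaling 5 of the 6 ratios were above 1, and with total counts, with or without mitochondrial genes, 4 were. The summed level had a ratio of 1.18 (1.12 to 1.24), or 1.02 without mitochondrial counts in the library size. The alpha-2,8 family had St8sia4, a polysialic acid synthase, at 20.96 and 17.4 CPM (0.828, 0.708 to 0.968) and St8sia6 at 6.37 and 7.30 CPM (1.15, 0.880 to 1.495). St8sia1, St8sia2, St8sia3 and St8sia5 were under 1 CPM with at most 13 counts.

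**Figure D3:**
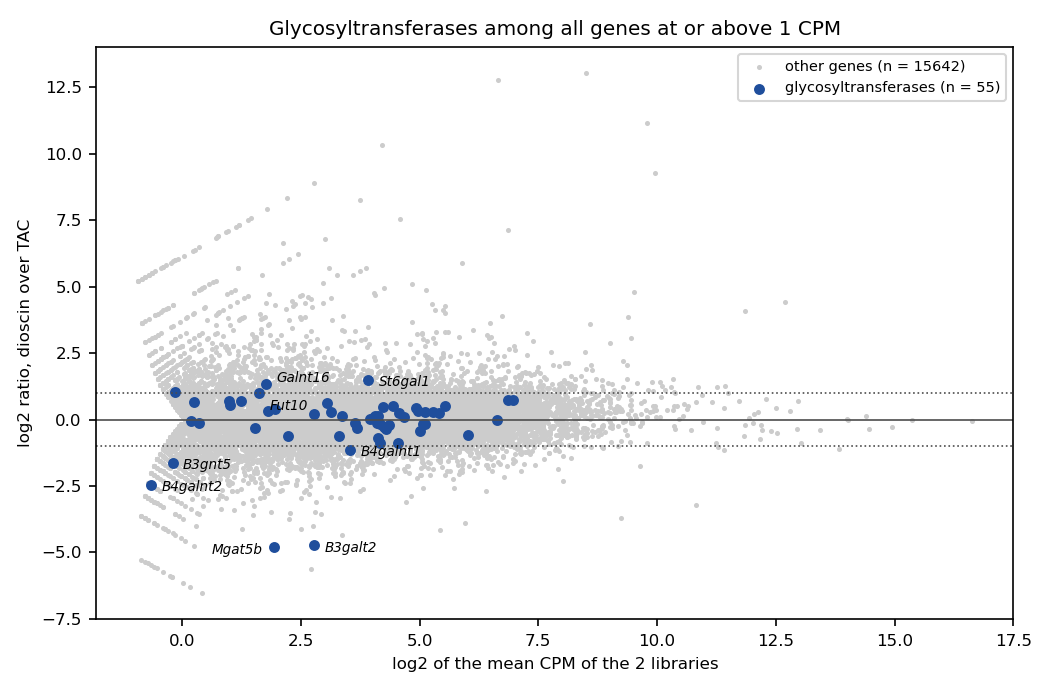
Log2 ratio of the dioscin over the TAC library against the log2 of the mean CPM of the 2 libraries, for the 55 glycosyltransferases (dark points) and the rest of the 15697 genes at or above 1 CPM (grey). The glycosyltransferases spread around 0, and Mgat5b and B3galt2 lie far below at places 15 and 17 from the lowest.

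The glycosyltransferases were read beside other genes of glycosylation, from lists chosen for their role. The list of sugar nucleotide supply and transport had 2 of 25 genes higher and 2 lower (median log2 ratio 0.43, beside 0.01 for all genes). Slc35a3, which carries UDP-N-acetylglucosamine into the Golgi, was 2.04-fold lower (1.81 to 2.29), from 51.4 to 25.2 CPM. Slc35a2, which carries UDP-galactose, was 2.06-fold higher (1.63 to 2.63), from 6.08 to 12.6 CPM, and Gmds, the first enzyme of GDP-fucose synthesis from mannose, was 2.43-fold higher (1.66 to 3.70). Scaling by total counts ended the call of Slc35a2 (ratio 1.95, or 1.79 without mitochondrial genes), while Slc35a3 passed under each of the 4 scalings.

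Golgi mannosidases and other chain enzymes had 4 of 16 genes higher and 2 lower, 37.5% of them against 19.3% of all genes, with a median of 0.28. Gcnt1, the core 2 branching enzyme of O-glycans, was 4.09-fold higher (3.23 to 5.26), from 4.98 to 20.4 CPM. Gcnt2, which branches lactosamine chains, was 2.59-fold higher (2.15 to 3.16), and Man1a, which trims mannose before Mgat1 acts, was 2.37-fold higher (2.11 to 2.68), from 22.2 to 52.7 CPM. The other genes past the size rule, named after their values were seen, were the Fringe enzymes, which lengthen O-fucose on Notch. Lfng was 2.30-fold higher (1.67 to 3.25) while Mfng and Rfng were 2.33-fold (1.99 to 2.74) and 2.07-fold (1.77 to 2.42) lower. Without mitochondrial counts in the library size Lfng, at 1.999, no longer passed.

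In the remaining lists the share called was below the 19.3% of all genes. It was 3.45% for glycosaminoglycan synthesis, 3.70% for Golgi structure and 6.25% for sialidases and lysosomal glycosidases. For dystroglycan O-mannosylation and N-glycan assembly it was 0%. Of 29 genes of glycosaminoglycan synthesis, 1 was higher and none lower (median 0.33), and that was Hs3st1, a heparan sulfate 3-O-sulfotransferase, 3.96-fold higher (2.72 to 6.06) from 1.91 to 7.65 CPM. None of 11 genes of dystroglycan O-mannosylation passed (median 0.20), where Dag1, dystroglycan itself, went from 70.7 to 128 CPM (ratio 1.81, 1.69 to 1.95) and Pomgnt1 had 22.4 and 27.0 CPM. In the list of N-glycan assembly in the endoplasmic reticulum, 0 of 32 passed (2 were lower without mitochondrial counts) and the median was 0.00, with ratios of 1.24 for Ost4, which has 53.2% of its exonic length opposite to another gene, and 0.777 for Ganab. Of 27 genes of Golgi structure, 1 was higher, the tether subunit Cog7 at 2.28-fold (1.87 to 2.79), or 1.98 and no longer past the size rule without mitochondrial counts, and the median was -0.03. Of 16 sialidases and lysosomal glycosidases, 1 was higher, Aga at 2.73-fold (2.096 to 3.63), with a median of 0.29. None of these lists held a gene as far from equal levels as Mgat5b or B3galt2.

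**Figure D4:**
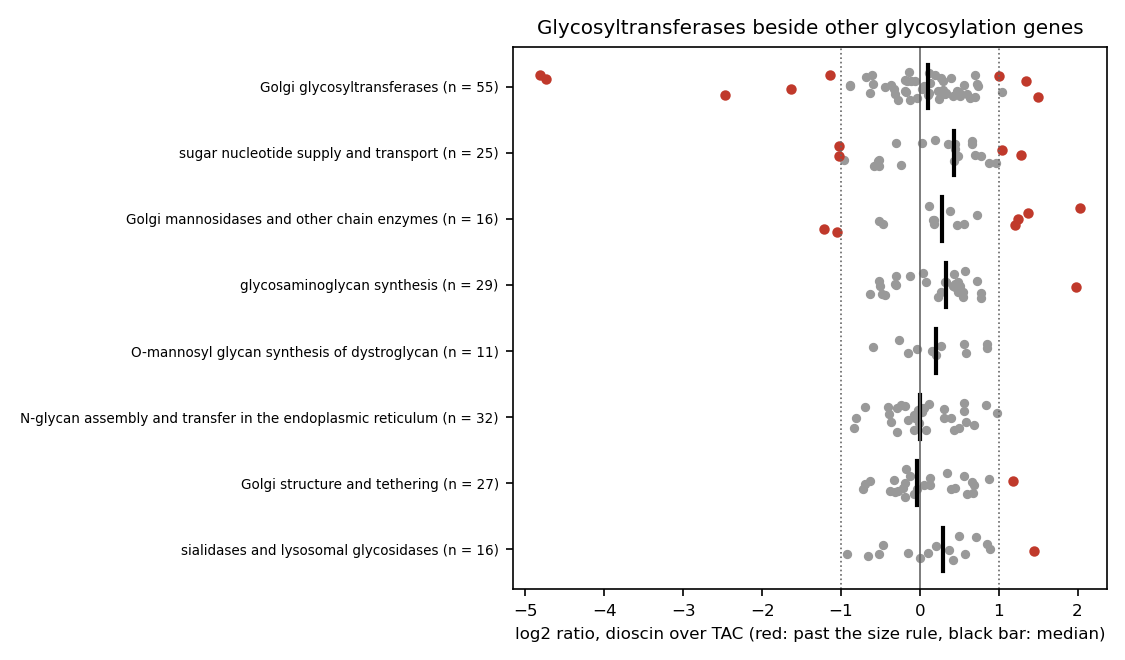
Log2 ratios of the genes at or above 1 CPM in the glycosyltransferase set and in 7 other lists, with red points past the size rule, black bars at the medians and dotted lines at a 2-fold difference. The glycosyltransferases hold the lowest values, with 5 genes lower and 3 higher, while the endoplasmic reticulum list has no red point.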

How the data were processed

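RNA of frozen hearts was extracted with Trizol and sequenced from Illumina TruSeq RNA libraries made from 1 ug of total RNA, per the labels' protocols. The deposited files hold raw read counts for each gene, made by the authors with HISAT2 2.1.0 and HTSeq on mm10, per the submitters' processing notes; the HTSeq version, annotation and strand setting are not given in the sources used here. In each file, the 5 closing HTSeq lines, among them reads in no gene (30.04% and 30.03% of everything counted, these lines included) and with several alignments (38.2% and 36.5%), were left out.

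Symbols, types, positions and exonic lengths came from GENCODE M21 on GRCm38, which mm10 names; 55141 of 55401 identifiers matched without version, and all 82 members with it. Of 439 genes with all exonic bases under opposite-strand exons, 248 had counts, so overlaps are stated beside the genes they touch. Counts were scaled with TMM factors of edgeR 4.0.16 (R 4.3.3). Intervals were computed with scipy 1.17.1 and checked, with the size rule, on simulated data. A count of 0 allows up to 3 counts, 0.174 CPM with TAC and 0.175 CPM with dioscin. Members at or above 1 CPM were named with both values, and of other lists up to 3 genes past the size rule or the 2 most abundant. Alternatives were other scalings (DESeq2 1.42.0 size factors among them), pseudocount, filters, fold limits and a GC and length correction. The members and lists were chosen with earlier results of these data known.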

Additional observations from a re-analysis of the deposited data

How the results depend on the processing

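The 5 lower genes passed under each of the 3 other scalings, the pseudocount of 1 and the correction for GC content and length, and so did St6gal1 and Galnt16 among the higher. Of the lower genes, Mgat5b, B3galt2, B4galnt2 and B3gnt5 reached 1 CPM in the TAC library alone, where they were high, and these settings do not test that. The median log2 ratio of the 55 genes, 0.10, was 0.0158 with total counts, 0.15 with the GC and length correction and -0.11 without mitochondrial counts. The last scaling brought 59 genes to 1 CPM, with a median of -0.15 and 9 lower, where the median of all genes was -0.21 against 0.01 with TMM. Other filters changed the genes included, with a median of 0.029 over the 41 genes at 5 CPM and of -0.0096 over the 72 genes with any count. With no filter 7 were higher and 7 lower, 9.72% each, beside 7.96% and 7.14% of all genes with any count. With 5 CPM, 1 was higher (St6gal1) and 3 were lower (B3galt2, B4galnt1 and Mgat5b), as B4galnt2 and B3gnt5 did not reach that level. That is 2.44% and 7.32%, beside 8.78% and 5.84% of all genes at 5 CPM. A size rule of 1.5-fold gave 7 higher and 11 lower, 12.7% and 20.0%, beside 20.3% and 17.9% of all genes. A rule of 3-fold gave 0 higher and 4 lower, 0% and 7.27%, beside 4.98% and 3.53% of all genes. Another alternative, chosen after seeing the data, kept the 39 genes with at most 5% exonic overlap with other genes. There 2 were higher (Fut10 and St6gal1) and 2 were lower (Mgat5b and B3gnt5), 5.13% each. The share over all genes was not computed under this limit. No called ratio changed sign, but the small ratios above 1 of Galnt18 and St3gal2 fell below 1 with total counts, and those of B4galt5, B4galt6, Fut8, Galnt18, Mgat5, St3gal2 and St8sia6 did so without mitochondrial counts. Across the 55 genes 15 ratios left their counting interval without mitochondrial counts and 2 with the GC and length correction. No paired analysis was possible because each group had 1 library. Differences between mice were not measured, and counts under about 20 leave wide intervals.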

Other observations

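Several genes under 1 CPM in both libraries had counts in mostly 1 of them. St8sia5, a ganglioside sialyltransferase, had 0 counts with TAC and 13 with dioscin, and St8sia2, a polysialic acid synthase of developing tissue, had 0 and 9. B3gnt7, an enzyme of keratan sulfate, had 1 and 15, and St6galnac5 had 2 and 10. The other way, Fut4 had 14 and 1 counts and Galnt12 had 14 and 3. These 6 genes are those that passed the size rule when the filter on low counts was left out, beside the 8 genes that passed with it. Fut9 with 5 and 0 counts, Galnt3 with 4 and 0 and Fut7 with 3 and 0 were detected in the TAC library alone, at or near the limit that a count of 0 allows.

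Some members lie next to each other. On chromosome 4, B4galt2 had a ratio of 0.644 and St3gal3, 48.7 kb away, had 1.26. On chromosome 11, the annotated St6galnac1, with no counts, lies 143 kb before Mgat5b, and St6galnac2 had a ratio of 0.776. Across the 55 genes, GC content and log2 ratio had a Pearson r of 0.08 and a Spearman rho of -0.04, and the log of exonic length had 0.04 and 0.14; these describe genes of the same 2 libraries.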
